A study of Mus musculus with 16 samples.

Results

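Microglia that meet amyloid, myelin debris or dying neurons switch on a shared set of genes, and cells in that state are called disease-associated microglia. The 10 genes described here, Trem2, Tyrobp, Apoe, Cst7, Itgax, Clec7a, Cd68, Lpl, Axl and Gpnmb, are widely used markers of that state. They were taken from the deposited count table by gene symbol, and each matched 1 of its 54532 rows. All 10 were among the 17555 genes kept by edgeR's filter on low counts over 16 mice.

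Disease-associated microglia are thought to arise in steps. Homeostatic genes recede and Tyrobp, Apoe and lysosomal genes rise first, and a later programme of phagocytic and lipid-handling genes, Itgax, Clec7a, Cst7, Axl and Lpl among them, depends on the lipid-sensing receptor TREM2 and its adaptor TYROBP. In tauopathy models the state is known to accompany neurodegeneration in the hippocampus.

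Hippocampal RNA of 16 mice was sequenced, 4 in each of the groups WT, hTau.P301S, WT + NR and (with both) hTau.P301S + NR. In the transgenic strain the Thy1 promoter drives P301S-mutant human Tau in neurons, not in microglia. Treated mice drank 6 mM nicotinamide riboside (NR), from which cells make NAD+, and the others vehicle water. By the sample labels treatment lasted 3 months in both genotypes and mice were 15 months old at the end, starting from 12. The study's text gives a younger age, and a part of it gives a shorter treatment. The tissue was whole hippocampus, so a lower level of a microglial gene can mean fewer microglia or less RNA per cell, and these cannot be told apart here.

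Levels are given as CPM, the gene's count over the TMM-normalized total of the mouse, scaled to a fixed total. Total counts per mouse ran from 16490261 to 21915362. A gene was called differentially expressed at an adjusted p under 0.05 (Benjamini-Hochberg over all genes tested) with an absolute log2 fold change above 0.5, by edgeR's quasi-likelihood test unless another tool is named. Exact permutation tests on single genes are two-sided and unadjusted. The pairwise comparisons share groups, so they are not independent of each other.

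Upstream sequences are shown for Itgax, Clec7a, Cst7 and Cd68, the 4 members that edgeR called for genotype below once 2 libraries were left out. Each is the 250 bases before the RefSeq transcription start (GRCm38.p6), written 5′ to 3′ on the strand of the gene. Capitals mark a match to the AP-1 motif TGANTCA, found by searching both strands. The stretches lie at chr7:128129300-128129549 (plus strand) for Itgax, chr6:129472780-129473029 (minus strand) for Clec7a, chr2:150570165-150570414 (plus strand) for Cst7 and chr11:69666171-69666420 (minus strand) for Cd68.
Itgax: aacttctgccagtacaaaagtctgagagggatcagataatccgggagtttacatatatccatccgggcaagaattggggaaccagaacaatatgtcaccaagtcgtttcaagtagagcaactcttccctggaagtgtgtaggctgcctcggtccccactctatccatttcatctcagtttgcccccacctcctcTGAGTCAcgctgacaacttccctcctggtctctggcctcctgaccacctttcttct
Clec7a: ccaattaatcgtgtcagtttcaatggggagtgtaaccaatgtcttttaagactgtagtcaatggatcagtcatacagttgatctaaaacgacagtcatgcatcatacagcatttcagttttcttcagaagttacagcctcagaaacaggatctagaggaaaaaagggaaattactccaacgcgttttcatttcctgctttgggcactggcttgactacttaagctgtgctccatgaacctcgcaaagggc
Cst7: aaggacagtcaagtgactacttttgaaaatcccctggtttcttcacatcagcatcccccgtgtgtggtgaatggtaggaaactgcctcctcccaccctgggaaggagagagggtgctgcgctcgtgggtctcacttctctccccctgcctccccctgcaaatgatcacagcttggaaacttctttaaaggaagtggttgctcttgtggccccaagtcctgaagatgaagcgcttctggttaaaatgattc
Cd68: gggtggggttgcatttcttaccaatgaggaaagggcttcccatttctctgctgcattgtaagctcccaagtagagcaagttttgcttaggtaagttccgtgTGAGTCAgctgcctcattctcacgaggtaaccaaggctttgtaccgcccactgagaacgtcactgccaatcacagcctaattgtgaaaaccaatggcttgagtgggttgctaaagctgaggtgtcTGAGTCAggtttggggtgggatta
Of the 10 members, 8 had an upstream sequence in the RefSeq table, and Tyrobp and Lpl had none. The AP-1 letters were in the 250 bases of 3 members, Itgax (1 match), Cd68 (2 matches) and Trem2 (1 match), and in 6.75% of all 32851 promoters. The PU.1 motif GAGGAAG was in those of Trem2 and Axl and in 10.6% of all promoters, and the E-box CACGTG was in none of the members' and in 6.02% of all. Trem2 was the member with both AP-1 and PU.1 letters, 9 and 41 bases before its start, and these did not overlap. These matches describe letters in a window and were not tested as binding sites.

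A pair of libraries stood apart. In hTau.P301S replicate 1, 14.4% of counts were mitochondrial and 19467 genes had a count, against 4.48 to 7.07% and at least 22199 genes in the other 15 mice. Its log2 CPM, less the mean of the other mice, fell with log2 gene length, with a slope of -0.543. In the other 15 mice that slope was -0.113 to 0.12. In hTau.P301S replicate 1, 67% of the 17555 genes lay outside the range of the other 15 mice, 5589 above it and 6169 below it. Of the 10 members, 7 lay above it. Axl, Gpnmb and Lpl did not, and they have the longest listed lengths of the members (5033, 6514 and 10478 bases). The part of gene length in these levels was not tested. In WT + NR replicate 1, total counts, mitochondrial share and genes detected were within the range of the other mice, but 4 members (Trem2, Tyrobp, Cst7 and Cd68) were above every one of the 14 mice left once both libraries were set aside. The share of all genes above those 14 mice was not counted. Of all 17555 genes, Cst7 had the widest gap in that library above the highest of those 14 mice, 2.66 in log2 CPM. In hTau.P301S replicate 1, not among the 14, Cst7 was higher still. The same library held 2297 CPM of mouse Prnp, the prion protein gene, against 771 to 1167 CPM in the 14 mice, and 2766 CPM of mouse App, the amyloid precursor gene, against 1310 to 2023 CPM. Its levels of Thy1 (571 CPM) and of Gm13394 (2.31 CPM) were low as in WT mice, in which Gm13394 was at 1.42 to 2.05 CPM, while it reached 568 CPM in hTau.P301S mice. Prnp and App were picked after their values were seen, and the library was singled out partly by the members' own levels. Results that rest on either library are therefore given with and without it. Because WT + NR replicate 1 was set aside partly for its high levels of these genes, leaving it out widens the genotype difference in them by construction, and every count, call and p given without it is a description and not independent of that choice. The libraries WT replicate 2, WT + NR replicate 3 and hTau.P301S + NR replicate 4 held more of the striatal marker Drd2 (24.9 to 83.7 CPM) than the other 13 (up to 14.3 CPM).

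Per kilobase of gene length, with the length listed in the count table, Apoe was the most abundant member. Over the 14 mice without the 2 libraries above, its median was 1053 CPM per kilobase (685 to 1455), above the whole range of the next gene, Tyrobp, at 22.8 (16.2 to 37.2). Axl followed at 12.5, Cd68 at 7.86, Trem2 at 3.98, Lpl at 3.48, Gpnmb at 1.49, Cst7 at 0.817, Clec7a at 0.553 and Itgax at 0.314. This order pools both genotypes. Within each of them Clec7a was above Cst7, with medians per kilobase of 0.352 and 0.278 CPM in 7 WT mice and of 2.48 and 2.07 in 7 hTau.P301S mice, where both were also above Gpnmb at 1.83. From Tyrobp down, each gene's range over mice overlapped that of the next. Itgax, Clec7a and Cst7 rested on few reads in WT mice. The 4 WT mice had 9 to 22 counts of Itgax, 2 to 26 of Clec7a and 0 to 11 of Cst7.

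**Figure D1:**
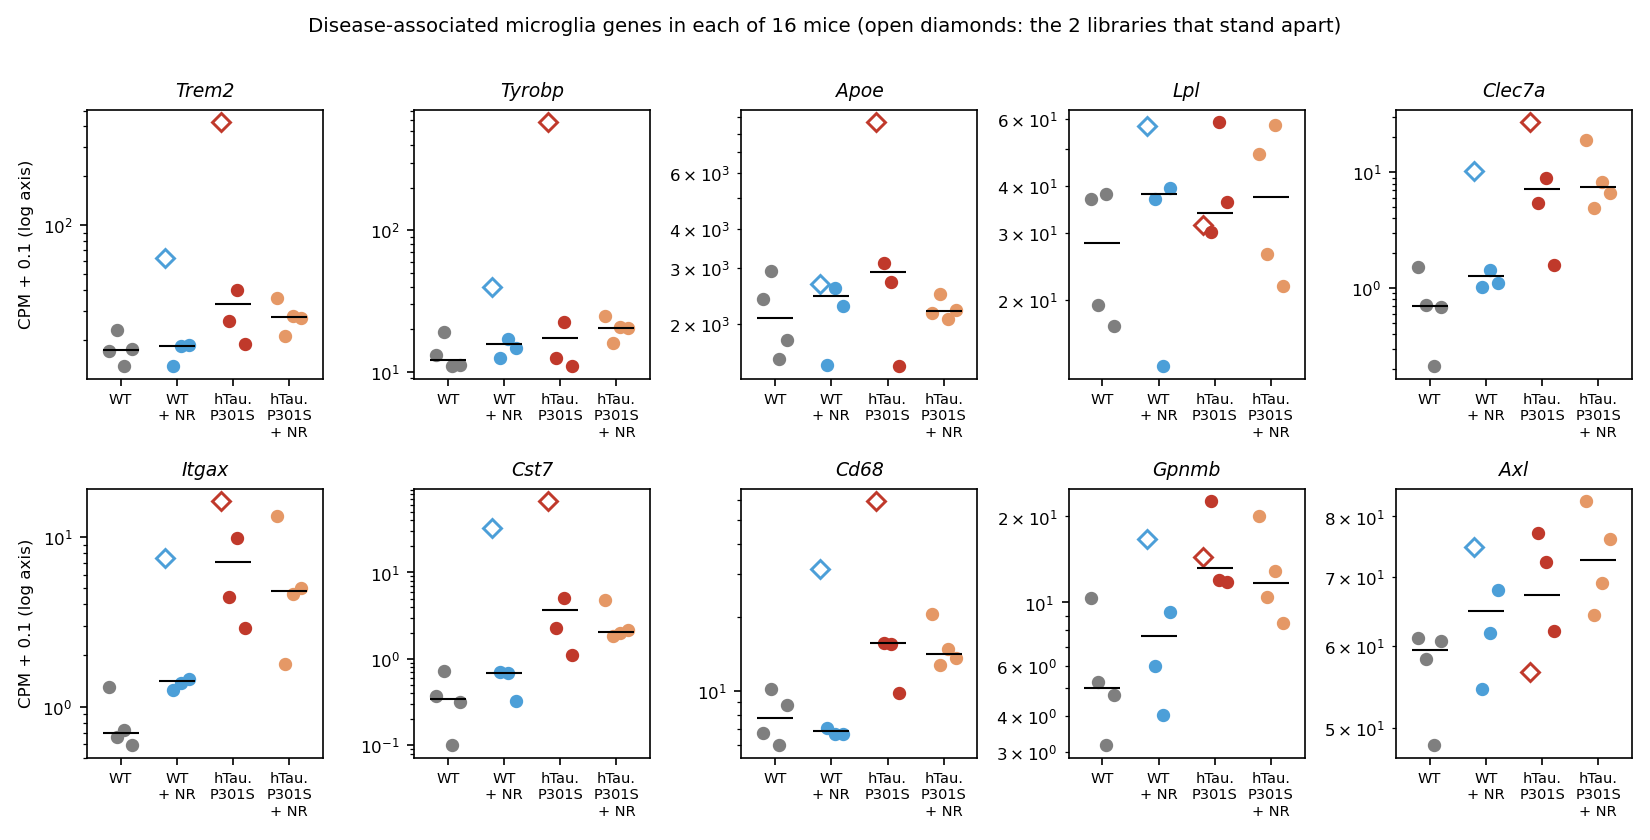
Level of each of the 10 genes in every mouse, as CPM plus 0.1 on a log axis, in the 4 groups; each point is a mouse, the black line is the group median and open diamonds are hTau.P301S replicate 1 and WT + NR replicate 1. For Itgax, Clec7a and Cst7, all hTau.P301S mice with and without NR lie above all WT mice except WT + NR replicate 1, as for 0.308% of all genes. That library was set aside partly for its high levels of these genes.

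Clec7a (ENSMUSG00000079293, chr6:129461591-129472779, minus strand of GRCm38) encodes dectin-1, a lectin receptor of phagocytes. GENCODE lists it as a polymorphic pseudogene, a gene that is intact in some strains only. The study's methods do not state the strain background of the transgenic mice or of their WT controls. The part of strain background in the Clec7a levels was not tested. The 4 WT mice had 1.42, 0.616, 0.105 and 0.594 CPM and the 4 hTau.P301S mice 27.2, 5.34, 8.87 and 1.49 CPM. WT + NR mice had 10.2, 0.928, 1.33 and 1.01 CPM, and hTau.P301S + NR mice 18.9, 4.8, 8.17 and 6.55 CPM. All 4 hTau.P301S mice lay above the highest WT mouse, by a narrow margin for hTau.P301S replicate 4, and with NR the genotypes overlapped only through WT + NR replicate 1.

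Itgax (ENSMUSG00000030789, chr7:128129547-128150657, plus strand) encodes CD11c, an integrin that homeostatic microglia carry little of. It was at 1.2, 0.56, 0.632 and 0.486 CPM in WT mice and at 16.2, 4.34, 9.74 and 2.82 CPM in hTau.P301S mice. With NR the WT mice had 7.39, 1.15, 1.28 and 1.35 CPM and the hTau.P301S mice 13.1, 1.67, 4.48 and 4.9 CPM. The lowest hTau.P301S + NR mouse, replicate 2, was only just above the 3 low WT + NR mice.

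Cst7 (ENSMUSG00000068129, chr2:150570415-150578944, plus strand) encodes cystatin F, an inhibitor of lysosomal cysteine proteases. Its level was 0.274, 0.616, 0 and 0.216 CPM in WT mice and 67.4, 2.17, 5.01 and 0.996 CPM in hTau.P301S mice. WT + NR mice had 32.2, 0.6, 0.592 and 0.225 CPM and hTau.P301S + NR mice 4.66, 1.72, 1.9 and 2.04 CPM. Both libraries that stood apart were far above their groups, and without them the genotypes did not overlap in either NR arm.

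Cd68 (ENSMUSG00000018774, chr11:69664213-69666153, minus strand) encodes a lysosomal membrane glycoprotein of macrophages and microglia. WT mice had 6.62, 10.1, 5.9 and 8.7 CPM and hTau.P301S mice 59.7, 15.7, 15.5 and 9.69 CPM. In the NR arm the WT mice had 31.4, 6.99, 6.56 and 6.59 CPM and the hTau.P301S mice 20.5, 12.7, 14.8 and 13.5 CPM. The untreated groups overlapped through hTau.P301S replicate 4, and the treated groups through WT + NR replicate 1.

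Trem2 (ENSMUSG00000023992, chr17:48346401-48354147, plus strand) was at 16.8, 22.6, 13.6 and 17.3 CPM in WT and at 426, 25.8, 39.9 and 18.6 CPM in hTau.P301S mice. It was at 63.1, 13.7, 18.1 and 18.4 CPM in WT + NR and at 35.8, 20.8, 27.9 and 26.8 CPM in hTau.P301S + NR mice. Tyrobp (ENSMUSG00000030579, chr7:30413760-30417585, plus strand), the adaptor that carries the TREM2 signal, was at 13.1, 19, 11 and 11 CPM in WT and at 582, 12.4, 22.2 and 10.8 CPM in hTau.P301S mice. In both genes hTau.P301S replicate 1 was far above the other mice. Of the other 3 hTau.P301S mice, replicates 2 and 3 were above all WT mice for Trem2 and replicate 4 was not, and for Tyrobp only replicate 3 was. Tyrobp was at 39.7, 12.4, 16.8 and 14.6 CPM in WT + NR and at 24.8, 15.8, 20.5 and 20.2 CPM in hTau.P301S + NR mice.

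Gpnmb (ENSMUSG00000029816, chr6:49036546-49070929, plus strand) encodes a transmembrane glycoprotein linked to lysosomal stress. WT mice had 3.06 to 10.2 CPM, hTau.P301S mice 11.7 to 22.6, WT + NR mice 3.94 to 16.6 and hTau.P301S + NR mice 8.4 to 19.9. Axl (ENSMUSG00000002602, chr7:25757273-25788705, minus strand), a receptor tyrosine kinase for the clearance of dying cells, kept within 48 to 82.7 CPM over all 16 mice. For Gpnmb and Axl, and for Lpl, hTau.P301S replicate 1 was not the highest of the 16 mice.

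Apoe (ENSMUSG00000002985, chr7:19696109-19699188, minus strand) encodes the main lipid carrier of the brain, made by astrocytes as well as by activated microglia. It was at 2163 ± 627 CPM (SD, n = 4) in WT and 2233 ± 172 CPM (SD, n = 4) with hTau.P301S + NR. In hTau.P301S mice it was at 8711 CPM in replicate 1 and at 1464 to 3110 CPM in the other 3. Lpl (ENSMUSG00000015568, chr8:68880491-68907448, plus strand), the lipoprotein lipase that neurons also express, ran from 13.3 to 58.9 CPM over all mice, and its 4 groups overlapped.

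The first comparison asked how the transgenic mice differed from WT mice without NR. No member was called by edgeR, with 0.00611% of the 16375 genes tested called. All 10 members had positive log2 fold changes, with a median of 2.29 against 0.02 over all genes tested, and 7 of the 10 had an unadjusted p under 0.05, against 3.41% of all genes in that direction. Itgax had the smallest p, at 3.52 in log2 (standard error 0.63, edgeR adjusted p = 0.323). Clec7a followed at 3.97 (standard error 0.98, adjusted p = 0.596, edgeR) and Cst7 at 6.09 (standard error 1.60, adjusted p = 0.598, edgeR).

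In 4 of the 10 members, Itgax, Clec7a, Cst7 and Gpnmb, no hTau.P301S mouse was as low as any WT mouse, against 3.45% of the 17555 genes (two-sided exact permutation p = 0.0286 for each, the smallest that 4 mice against 4 allow). DESeq2 on the same 8 mice called 2 members, Itgax (adjusted p = 1.04e-05) and Clec7a (adjusted p = 0.00149), and gave no adjusted p for Trem2, Tyrobp or Cst7. It called 0.568% of all genes it tested, and with all 4 groups in one fit it called the same 2 members and 2.48% of all genes. Without hTau.P301S replicate 1, edgeR called no member, against 0.0832% of 16835 genes, and the members' median was 0.73 in log2, with 6 at an unadjusted p under 0.05 against 11.8% of all genes. In 5 members, the same 4 and Axl, the remaining 3 hTau.P301S mice were above all WT mice, against 7.63% of all genes. Tyrobp was then at 0.16 (standard error 0.30) and no longer at 3.56 (standard error 1.33), Trem2 at 0.67 (standard error 0.27) and no longer at 2.88 (standard error 1.0), and Apoe at 0.16 (standard error 0.30) and no longer at 0.90 (standard error 0.53). Cst7 was at 3.27 (standard error 0.85, adjusted p = 0.298, edgeR) and no longer at 6.09. Itgax was at 2.95 (standard error 0.50, adjusted p = 0.124, edgeR), Clec7a at 2.92 (standard error 0.75) and Gpnmb at 1.41 (standard error 0.41).

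Under NR, hTau.P301S + NR mice were set against WT + NR mice. No member was called, with 0.054% of 16671 genes called, and none had an unadjusted p under 0.05, against 6.09% of all genes. DESeq2 called no member and 0.305% of all genes, and gave no p for Cst7. Clec7a had the largest value in log2, 1.51 (standard error 0.81, adjusted p = 0.781, edgeR), and Cst7 the lowest, -1.70 (standard error 1.32, adjusted p = 0.804, edgeR). Without WT + NR replicate 1, all 10 log2 fold changes were positive with a median of 0.89, and 7 members had an unadjusted p under 0.05, against 5.94% of all genes in either direction. None was called, against 0.0589% of 16972 genes. The smallest adjusted p were 0.159 for Cd68, at 1.21 (standard error 0.19, edgeR), and 0.163 for Clec7a, at 3.14 (standard error 0.52, edgeR). In 5 members (Trem2, Cst7, Itgax, Clec7a and Cd68) every hTau.P301S + NR mouse was then above each of the 3 remaining WT + NR mice, as for 2.93% of all genes. With 3 mice against 4 the exact test cannot give a p under 0.0571.

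Taking both NR arms together, genotype was fitted over all 16 mice with NR as a covariate. No member was called, against 0.12% of 17555 genes, although all 10 had positive log2 fold changes, with a median of 1.19 against 0.01 over all genes. Clec7a was at 2.65 (standard error 0.76, adjusted p = 0.376, edgeR), Itgax at 2.25 (standard error 0.63, adjusted p = 0.366, edgeR), Gpnmb at 0.96 (standard error 0.33, adjusted p = 0.488, edgeR) and Cd68 at 0.96 (standard error 0.44, adjusted p = 0.637, edgeR). These 4 were the members with an unadjusted p under 0.05, against 3.36% of all genes in that direction. DESeq2 on the same 16 mice called Clec7a (adjusted p = 0.00934) and Itgax (adjusted p = 0.0104), with 0.553% of all genes called and no p for Trem2, Tyrobp or Cst7. The exact test, with genotype labels permuted within each NR arm, gave p = 0.00286 for Clec7a, 0.00531 for Itgax and 0.00939 for Gpnmb, where 0.000408 is the smallest it can give.

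The genotype result depended on the libraries kept. Without hTau.P301S replicate 1 no member was called, against 0.318% of 17897 genes, and the members' median log2 fold change was 0.31, with Cst7 at 0.32 (standard error 1.19). Without WT + NR replicate 1 the median was 1.65. Over those 15 mice edgeR called Clec7a, at 3.56 in log2 (standard error 0.60, adjusted p = 0.0167), and Itgax, at 2.91 (standard error 0.49, adjusted p = 0.0167), against 0.257% of 17919 genes called. For Itgax, Clec7a and Cst7 all 8 hTau.P301S mice were above all 7 remaining WT mice, as for 0.308% of all genes. With hTau.P301S replicate 1 left out as well, 4 of the 10 members were called over 14 mice, against 0.528% of 17801 genes. Clec7a was higher in hTau.P301S mice by 3.03 (standard error 0.48, adjusted p = 0.0101, edgeR), Itgax by 2.60 (standard error 0.43, adjusted p = 0.0115, edgeR), Cst7 by 2.84 (standard error 0.53, adjusted p = 0.0234, edgeR) and Cd68 by 1.0 (standard error 0.17, adjusted p = 0.0146, edgeR), all in log2.

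In CPM, the 7 hTau.P301S mice of that fit averaged 7.74 ± 5.50 (SD, n = 7) for Clec7a against 0.859 ± 0.460 (SD, n = 7) in the 7 WT mice, and 14.6 ± 3.29 (SD, n = 7) for Cd68 against 7.35 ± 1.48 (SD, n = 7). For Itgax, Clec7a and Cst7 all 7 hTau.P301S mice were above all 7 WT mice, as for 0.461% of all genes. Gpnmb, at 1.22 (standard error 0.29, adjusted p = 0.101, edgeR), and Trem2, at 0.71 (standard error 0.18, adjusted p = 0.122, edgeR), were not called. Axl was at 0.28 (standard error 0.09), Lpl at 0.48 (standard error 0.29), Tyrobp at 0.32 (standard error 0.19) and Apoe at 0.12 (standard error 0.19), and none of them was called either. The choice of libraries to leave out was made after seeing the data, and with voom sample weights over the same 14 mice only Cd68 was called (adjusted p = 0.0173, limma), with 0.607% of all genes.

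**Figure D2:**
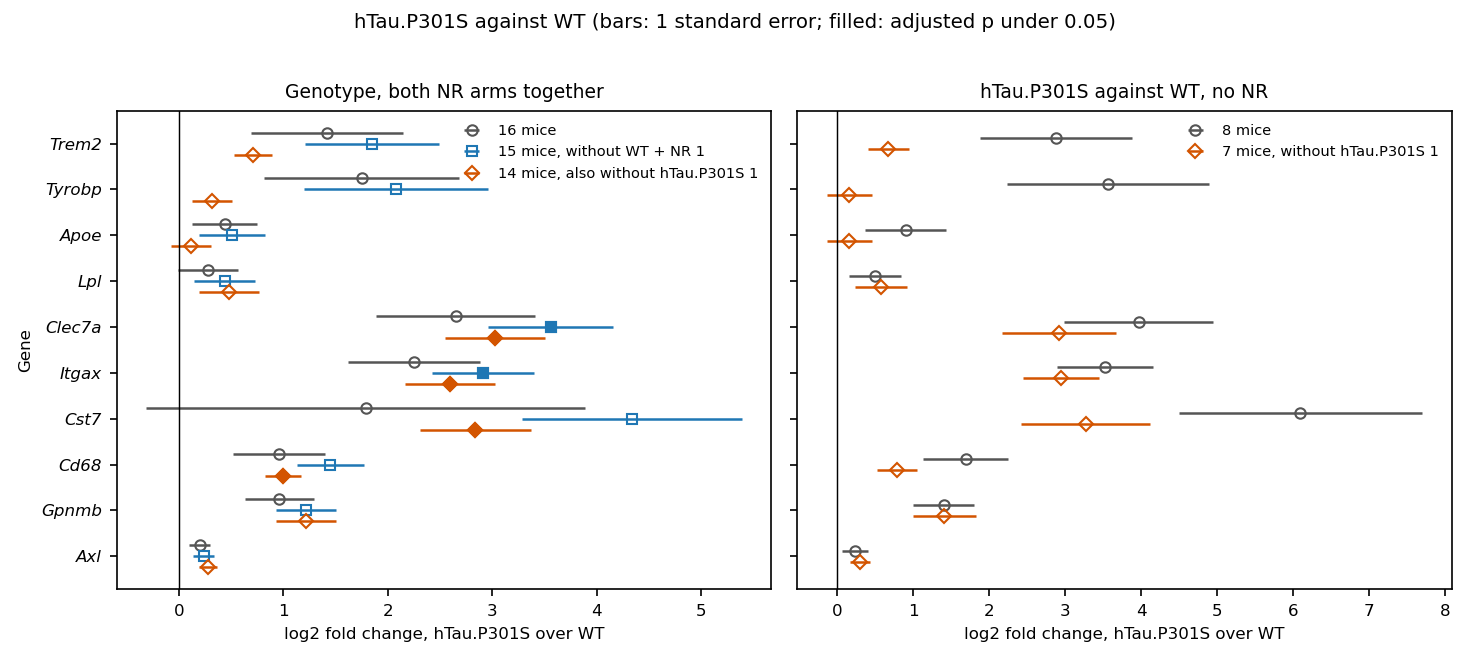
Log2 fold change of each gene in hTau.P301S over WT mice by edgeR, over both NR arms (left) and without NR (right), with bars of 1 standard error and filled symbols for an adjusted p under 0.05. Leaving out WT + NR replicate 1 moved Cst7 from 1.79 to 4.34 on the left, and leaving out hTau.P301S replicate 1 moved Tyrobp from 3.56 to 0.16 on the right.

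NR in hTau.P301S mice was examined by setting hTau.P301S + NR against hTau.P301S. No member was called, with 0.0061% of 16386 genes called, and 9 of the 10 log2 fold changes were negative, with a median of -0.59 against -0.03 over all genes. Tyrobp and Cst7 had an unadjusted p under 0.05, against 7.01% of all genes in that direction, and DESeq2 called 1.4% of all genes and none of the 7 members other than Trem2, Tyrobp and Cst7, for which it gave no p. Tyrobp was at -2.97 (standard error 1.29, adjusted p = 0.367, edgeR), Cst7 at -2.88 (standard error 1.25, adjusted p = 0.367, edgeR) and Trem2 at -2.22 (standard error 0.98, adjusted p = 0.367, edgeR). These values rested on hTau.P301S replicate 1. Without it Tyrobp was at 0.44 (standard error 0.25), Cst7 at -0.07 (standard error 0.54) and Trem2 at -0.01 (standard error 0.26). The 10 values then lay between -0.25 and 0.88, with 5 above and 5 below 0 and a median of 0.03, and none had an unadjusted p under 0.05, against 18% of 16734 genes and 0.197% called.

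NR in WT mice gave no called member, and 0% of 16714 genes were called by edgeR, with 0.79% at an unadjusted p under 0.05 and 3 genes (0.00948%) called by DESeq2, no member among them, with no p given for Cst7 or Clec7a. All 10 members had positive log2 fold changes, with a median of 0.67, and 3 had an unadjusted p under 0.05, against 0.371% of all genes in that direction: Cst7 at 4.92 (standard error 1.73), Itgax at 1.96 (standard error 0.70) and Clec7a at 2.31 (standard error 0.97), each with an adjusted p of 1 (edgeR). Here WT + NR replicate 1 set the values. Without it Cst7 was at 0.76 (standard error 0.89), Itgax at 0.79 (standard error 0.41) and Clec7a at 0.66 (standard error 0.68), no member had an unadjusted p under 0.05 (0.709% of all genes), and the median was 0.10.

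**Figure D3:**
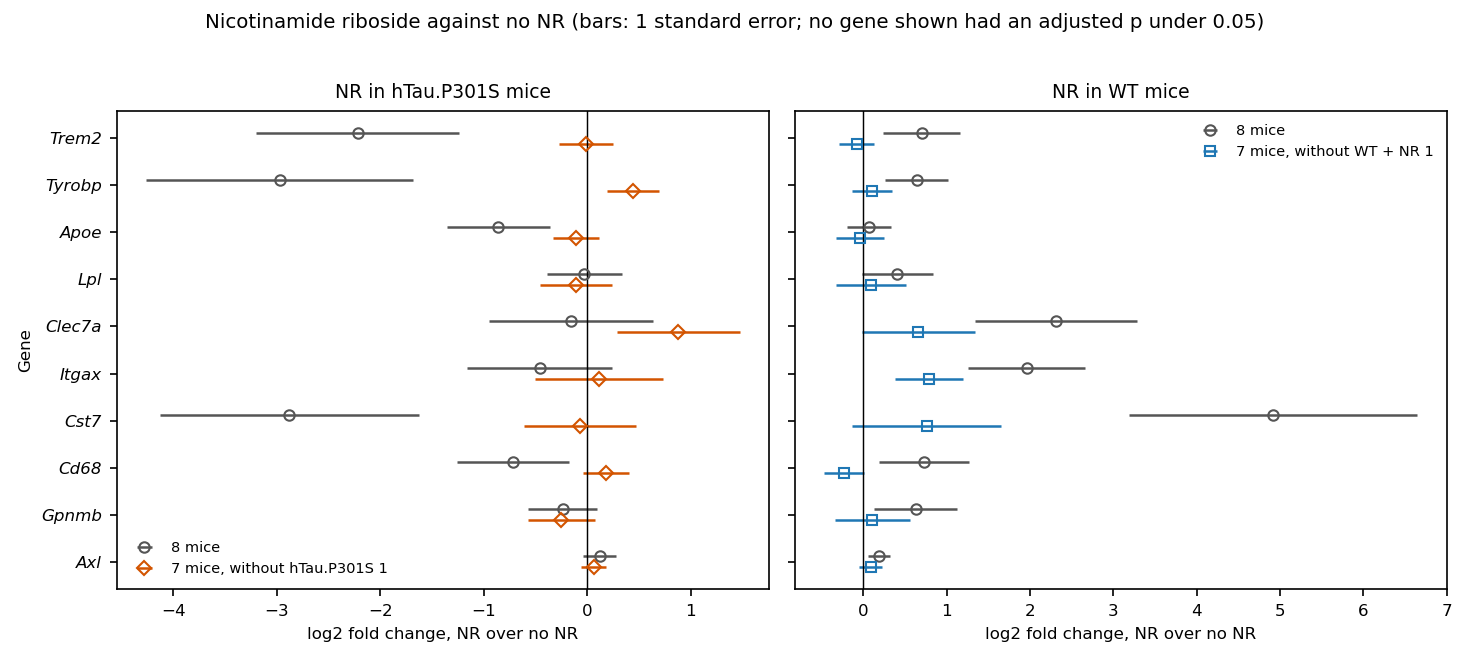
Log2 fold change of each gene with NR over without NR by edgeR, in hTau.P301S mice (left) and WT mice (right), with bars of 1 standard error, for all 8 mice and without the library that stood apart. Without that library the log2 fold changes lay between -0.25 and 0.88 in hTau.P301S mice and between -0.23 and 0.79 in WT mice, and no gene shown was called.

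Whether the effect of NR differed between the genotypes was tested by the interaction of NR with genotype over 16 mice. By edgeR no member, and 0% of 17555 genes, had an adjusted p under 0.05 (7.92% at an unadjusted p under 0.05), and DESeq2 called no member and 16 genes (0.0833%), and gave no p for Trem2, Tyrobp or Cst7. The interaction was negative for all 10 members, with a median of -1.91, and 4 of them (Trem2, Tyrobp, Cst7 and Itgax) had an unadjusted p under 0.05, against 4.63% of all genes in that direction. It was lowest for Cst7, at -7.76 (standard error 2.26, adjusted p = 0.558, edgeR), and Tyrobp, at -3.57 (standard error 1.38, adjusted p = 0.558, edgeR). Without the 2 libraries that stood apart, it lay between -0.85 and 0.41 with a median of -0.06, no member was called (0.00562% of 17801 genes) or had an unadjusted p under 0.05 (5.99%), and Cst7 was at -0.85 (standard error 1.05). The standard errors there ran from 0.18 for Axl to 1.05 for Cst7.

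The members were next set against microglial markers in general, by subtracting from each member's log2 CPM the mean log2 CPM of 14 genes that microglia express in most states (Aif1, Itgam, Csf1r, C1qa, C1qb, C1qc, Ctss, Laptm5, Fcer1g, Ptprc, Irf8, Ly86, Unc93b1 and Cyth4). Over the genotypes in all 16 mice, Clec7a was higher in hTau.P301S mice by 2.21 (exact permutation p = 0.00122), Itgax by 1.63 (exact permutation p = 0.00286), Cd68 by 0.45 (exact permutation p = 0.0229) and Cst7 by 1.89 (exact permutation p = 0.042) in log2. Over 14 mice without the 2 libraries, the differences were 2.43 for Clec7a, 2.17 for Cst7, 1.88 for Itgax, 0.88 for Gpnmb, 0.61 for Cd68 and 0.31 for Trem2, and Tyrobp differed by -0.07, Apoe by -0.24, Axl by -0.09 and Lpl by 0.15. Between the untreated genotypes, the Trem2 difference on this scale was 0.85 in favour of hTau.P301S, with no overlap (exact permutation p = 0.0286), and 0.41, still with no overlap, without hTau.P301S replicate 1. There hTau.P301S replicate 4, at 0.02, was only just above the highest WT mouse. Giving NR to the transgenic mice came with a Trem2 difference of -0.66, treated minus untreated, with no overlap (exact permutation p = 0.0286). Without hTau.P301S replicate 1 that difference was -0.22, again with no overlap (exact permutation p = 0.0571, the smallest that 3 mice against 4 allow). The margin was narrow, with hTau.P301S replicate 4 at 0.02 and hTau.P301S + NR replicate 4 at 0.01. Itgax was higher in WT + NR than in WT mice by 1.21 with no overlap (exact permutation p = 0.0286), and by 0.84 without WT + NR replicate 1. No other member had non-overlapping groups in either NR comparison. These p were not adjusted, and the share of all genes without overlap on this scale was not counted. Relative to 12 homeostatic microglial genes instead, Trem2 overlapped between the untreated genotypes (difference 1.33, exact permutation p = 0.0571). With NR in the transgenic mice it overlapped as well (difference -0.96, exact permutation p = 0.229). Both overlaps remained without hTau.P301S replicate 1, with differences of 0.58 and -0.21.

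**Figure D4:**
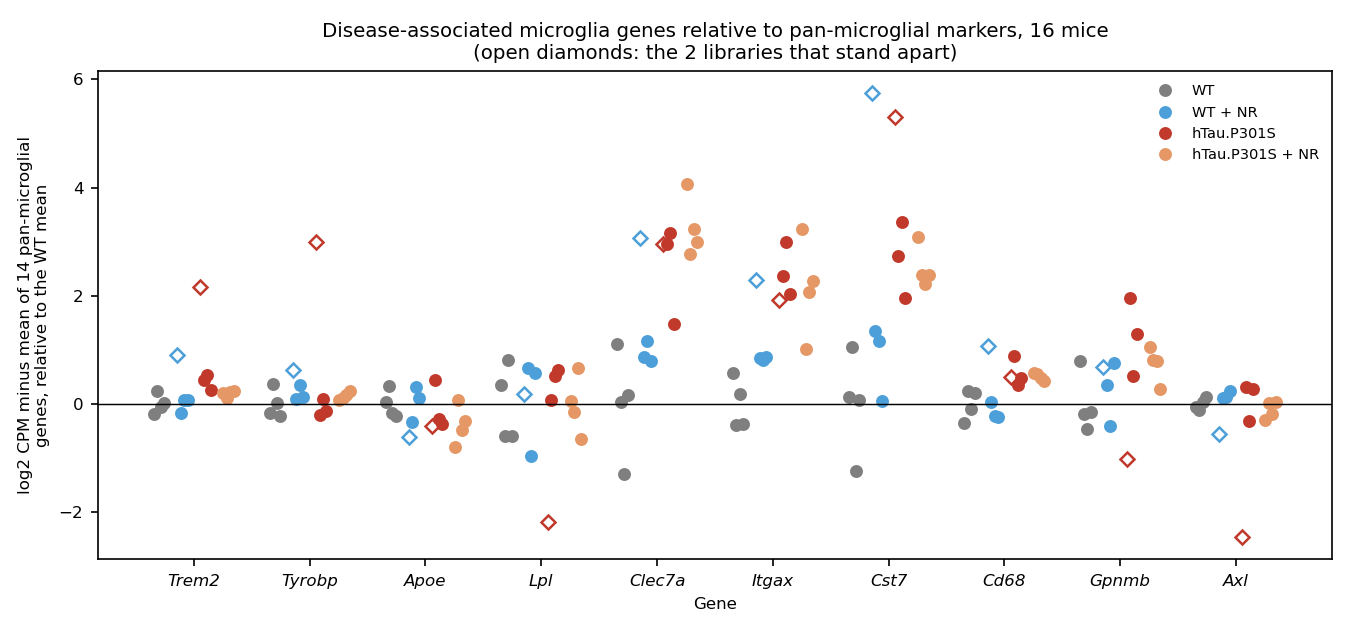
Log2 CPM of each gene minus the mean log2 CPM of 14 pan-microglial genes, with the mean of the 4 WT mice set to 0, for every mouse in the 4 groups; open diamonds are hTau.P301S replicate 1 and WT + NR replicate 1. With all 16 mice every gene overlapped between the genotypes. Without WT + NR replicate 1, set aside partly for its high levels of these genes, Clec7a, Itgax, Cst7 and Cd68 did not overlap. Trem2, Tyrobp, Apoe, Lpl, Axl and Gpnmb still did. The share of all genes without overlap on this scale was not counted.

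The microglial markers themselves were compared in the same way. Over 14 mice the median over the 14 pan-microglial genes was 0.40 in log2 for genotype, against 0.85 for the 10 members and -0.03 over all genes. Of the 14, 7 had an unadjusted p under 0.05, all higher, against 14.1% of all genes in either direction, and 1, Ctss, the lysosomal protease cathepsin S, was called at 0.78 (standard error 0.16, adjusted p = 0.0392, edgeR), against 0.528% of all genes. Over 16 mice their median was 0.79, against 1.19 for the members, with 5 at an unadjusted p under 0.05 and none called, and Ctss was at 1.05 (standard error 0.36, adjusted p = 0.488, edgeR). Their summed level ran from 366 to 526 CPM in WT, from 401 to 926 in WT + NR, from 452 to 4097 in hTau.P301S and from 535 to 823 in hTau.P301S + NR mice. The highest of each of the WT + NR and hTau.P301S groups was replicate 1. The 12 homeostatic genes had a median of 0.20 over 14 mice and 0.25 over 16. None was called, and Cx3cr1, the fractalkine receptor, was at 0.39 (standard error 0.17), with an unadjusted p under 0.05.

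Of the other genes linked to disease-associated microglia, none was called for genotype over 16, 15 or 14 mice. Over 14 mice the 6 early genes (Ctsb, Ctsd, B2m, Fth1, Lyz2 and Timp2) had a median of 0.26 in log2, with 3 at an unadjusted p under 0.05, all higher: Ctsb at 0.25 (standard error 0.08), Lyz2 at 0.71 (standard error 0.32) and Fth1 at 0.34 (standard error 0.15). The 23 later genes had a median of 0.25, with 8 higher and 1 lower at an unadjusted p under 0.05, against 14.1% of all genes in either direction. Over 16 mice the medians were 0.72 for the early and 0.47 for the later genes. Over 14 mice the lowest p among the later genes belonged to Cox6a2, at 0.63 (standard error 0.18), Ank, at 0.25 (standard error 0.07), and Ccl3, a chemokine, at 1.59 (standard error 0.47).

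Among 18 genes of TREM2 signalling, 16 were tested. For genotype over 14 mice, 15 of the 16 had positive log2 fold changes, with a median of 0.30, and Inpp5d, the phosphatase SHIP1 that restrains the pathway, was called at 0.62 (standard error 0.11, adjusted p = 0.0147, edgeR). Plcg2, the phospholipase downstream of TREM2, was at 0.42 (standard error 0.15, adjusted p = 0.240, edgeR), and Clu, a TREM2 ligand that astrocytes secrete, at 0.37 (standard error 0.13, adjusted p = 0.240, edgeR). Inpp5d was also called over 15 mice without WT + NR replicate 1, at 0.66 (standard error 0.12, adjusted p = 0.0261, edgeR). Over 16 mice it was at 0.52 (standard error 0.16, adjusted p = 0.414, edgeR) and none of the 16 genes was called.

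Markers of other cells were followed through the same fit. The 8 astrocyte markers had a median of 0.14 over 14 mice, with none called and Gfap and Slc1a3 at an unadjusted p under 0.05, and a median of 0.05 over 16 mice. Gfap was at 1.17 over 14 mice (standard error 0.25, adjusted p = 0.0552, edgeR) and at 0.81 over 16 (standard error 0.34, adjusted p = 0.593, edgeR). Its level was 2211 CPM in WT + NR replicate 1, against 317 to 2099 CPM in the 14 mice and 317 to 698 CPM in the 4 WT mice. The 7 endothelial and mural markers had a median of -0.28 over 14 mice and -0.40 over 16, with none called and Cldn5, a tight junction gene, at -0.65 over 14 mice (standard error 0.19, adjusted p = 0.192, edgeR). In hTau.P301S against WT mice without hTau.P301S replicate 1, all 7 were negative, with Cldn5 at -0.84 (standard error 0.24, adjusted p = 0.312, edgeR) and Flt1 at -1.0 (standard error 0.37, adjusted p = 0.386, edgeR). Of 4 blood markers, 3 were called over 14 mice, the haemoglobin genes Hbb-bs at -3.07 (standard error 0.51, adjusted p = 0.0125, edgeR), Hba-a1 at -2.89 and Hbb-bt at -3.29, all lower in hTau.P301S mice, and none over 16 mice. The level of Hbb-bs was 6.43 to 49.3 CPM in WT, 2.99 to 9.81 in WT + NR, 0.952 to 13.5 in hTau.P301S and 0.616 to 1.12 CPM in hTau.P301S + NR mice. The 7 choroid plexus markers had a median of -1.53 and summed to 25.4 to 8028 CPM in WT mice and 28.9 to 4768 CPM in hTau.P301S mice. Markers of border macrophages, 7 genes, summed to 4.16 to 30.0 CPM over the 15 mice other than hTau.P301S replicate 1 and had a median of -0.36, with none at an unadjusted p under 0.05. In hTau.P301S replicate 1 they summed to 6.66 CPM, within that range. The 8 markers of monocytes, neutrophils and T cells summed to 0.71 to 12.4 CPM over the 15 mice and to 6.06 CPM in hTau.P301S replicate 1. The part of red cells, choroid plexus, vessels and astrocytes in the members' levels was not tested.

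The genes most like each member over the 15 mice without hTau.P301S replicate 1 are given as a description, since the mice share genotype and library differences. Clec7a and Itgax were both most like Plek, which encodes pleckstrin of blood and myeloid cells, with Pearson's r of 0.95 and 0.96 in log2 CPM (Spearman's rho 1.0 and 0.964). Cst7 and Cd68 were most like each other (r = 0.941, rho = 0.936). C1qb was among the 2 genes closest to Trem2 (r = 0.952), and Tyrobp was most like Gusb (r = 0.905) and Trem2 (r = 0.898). Gpnmb was closest to C4b (r = 0.921) and Serpina3n (r = 0.915), Axl to Was (r = 0.927) and Apoe to Ctsl (r = 0.888). Lpl was most like Cpne4 (r = 0.943) and Iyd (r = 0.93), and no other member was among the 2 genes closest to it. Adding hTau.P301S replicate 1 left r at 0.925 or above for Clec7a and Itgax with Plek, and lowered it from 0.927 to 0.56 for Axl with Was.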

How the data were processed

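The authors deposited raw counts per gene for 16 mice. By the study's methods, reads were aligned with STAR to mm10 and counted with RSEM, and per the labels FastQC and Trim Galore were run (versions not given in the sources used here). Whole-gene counts do not separate isoforms, and counting was not stated to use strand.

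Counts were tested with edgeR 4.0.16 (R 4.3.3; filterByExpr, TMM, quasi-likelihood), each pair of groups on its own 8 mice, genotype and the interaction over 16. The alternatives were DESeq2 1.42.0, limma 3.58.1 (voom) and those named in the closing section. CPM used TMM totals, and log2 CPM a prior count of 2 (alternative 0.5). Exact permutation tests used scipy 1.17.1. The edgeR fit was also run on simulated counts, with mean levels and spread taken from the WT and WT + NR mice. No simulated library was made to stand apart, so that run does not cover such libraries.

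The members, the other lists and the libraries left out were chosen with earlier results of these data known. Named genes were all 10 members and, from each other list, any gene called or up to 3 with the smallest unadjusted p under 0.05. Likeness was Pearson's r over log2 CPM. Some results that these rules would name are not reported here.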

Additional observations from a re-analysis of the deposited data

Results flagged for a closer look

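In 11 of the 40 gene and group combinations (10 genes, 4 groups of 4 mice), a mouse lay far above the other 3 of its group, with a gap to the next that passed Dixon's limit for 4 values. For independent, normally distributed values chance flags about 1 in 20. The 10 genes were measured in the same mice and as untransformed CPM, so 11 of 40 cannot be set against that share. WT + NR replicate 1 was that mouse for 6 genes, at 63.1 CPM of Trem2, 39.7 of Tyrobp, 32.2 of Cst7, 7.39 of Itgax, 10.2 of Clec7a and 31.4 of Cd68. The mouse hTau.P301S replicate 1 was it for 4 genes, at 426 CPM of Trem2, 582 of Tyrobp, 67.4 of Cst7 and 59.7 of Cd68. In the hTau.P301S + NR group, replicate 1 stood out for Cst7 at 4.66 CPM. What sets these libraries apart was not tested.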

How the results depend on the processing

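The replicate numbers did not pair the mice (correlations of same-numbered deviations from -0.537 to 0.287), so a replicate block is an alternative only. It called 1 member for genotype, Clec7a, with 22 of all 17555 genes called. It turned hTau.P301S + NR against hTau.P301S to 0.25 for Clec7a, and against WT + NR to 0.24 for Trem2, 0.11 for Tyrobp, 0.02 for Apoe and 0.77 for Cst7. DESeq2 called 2 members for genotype and 2 for hTau.P301S against WT, also 2 with all 4 groups in one fit. For genotype, leaving out each mouse gave 0 to 2 called members (2 without WT + NR replicate 1), leaving out both libraries that stood apart gave 4, and voom with sample weights on those 14 mice 1. No other alternative changed a count of called members. Of the log2 fold changes of members over all alternatives, 1165 kept their sign and side of the threshold, 14 newly passed it and 60 turned sign.

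Signs turned as follows, in log2; the cause was not tested. Voom with sample weights gave, for hTau.P301S + NR against hTau.P301S, 0.26 for Trem2, 0.63 for Tyrobp, 0.12 for Apoe, 0.66 for Cst7, 0.62 for Itgax, 1.81 for Clec7a, 0.47 for Cd68, 0.07 for Lpl and 0.17 for Gpnmb, and against WT + NR 0.53 for Trem2, 0.39 for Tyrobp, 0.02 for Apoe and 2.15 for Cst7. Without the striatal-marker libraries the latter was 0.06 for Apoe and -0.02 for Lpl. The interaction became 0.06 for Trem2, 0.32 for Tyrobp, 0.21 for Clec7a and 0.41 for Cd68 without both libraries, 0.15 for Tyrobp, 0.26 for Clec7a and 0.21 for Cd68 with voom, and 0.21 for Trem2, 0.44 for Tyrobp, 0.92 for Clec7a and 0.63 for Cd68 with both changes.

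Leaving out each mouse, hTau.P301S + NR against hTau.P301S ran from -3.33 to 0.44 for Tyrobp, -1.15 to 0.11 for Itgax, -0.70 to 0.88 for Clec7a, -0.97 to 0.18 for Cd68, -0.28 to 0.23 for Lpl and -0.52 to 0.03 for Gpnmb. WT + NR against WT ran from -0.08 to 0.93 for Trem2, -0.07 to 0.24 for Apoe and -0.23 to 0.95 for Cd68. The treated genotypes ran from -0.26 to 0.74 for Trem2, -0.22 to 0.49 for Tyrobp, -0.17 to 0.09 for Apoe, -2.15 to 2.44 for Cst7 and -0.21 to 0.38 for Lpl, and the Axl interaction from -0.13 to 0.03.

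Relative to homeostatic instead of pan-microglial genes, genotype became 0.10 for Apoe and 0.11 for Lpl, hTau.P301S against WT 0.33 for Apoe and 0.24 for Lpl, hTau.P301S + NR against hTau.P301S -0.08 for Lpl and -0.25 for Gpnmb, WT + NR against WT 0.04 for Axl, and the treated genotypes 0.09 for Trem2 and 0.03 for Axl. Relative to pan-microglial genes, genotype ran from -0.12 to 0.32 for Tyrobp and -0.18 to 0.14 for Lpl with a library left out, and was -0.07 for Tyrobp and 0.15 for Lpl without both. Without hTau.P301S replicate 1, hTau.P301S against WT was -0.09 for Tyrobp, 0.40 for Lpl and 0.09 for Axl, and hTau.P301S + NR against hTau.P301S 0.23 for Tyrobp, -0.42 for Lpl, -0.20 for Axl and -0.52 for Gpnmb, with plain log2 CPM differences of 0.03 for Trem2, 0.48 for Tyrobp, 0.08 for Cst7 and 0.18 for Cd68. Without WT + NR replicate 1, WT + NR against WT was -0.01 for Trem2, 0.02 for Apoe, -0.14 for Cd68 and 0.16 for Axl, with plain differences of -0.06 for Trem2, -0.02 for Apoe and -0.19 for Cd68, and the treated genotypes 0.20 for Trem2.

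Itgax, Clec7a and Cst7 rested on at most 26 counts in each WT mouse, and bulk tissue cannot assign any member to microglia.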
